A study of Mus musculus with 4 samples.

Results

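The core circadian clock genes Arntl, Clock, Npas2, Per1, Per2, Per3, Cry1 and Cry2 were examined for SOX2 occupancy in the mouse cortex. A SOX2 peak belonged to a gene when its centre lay inside the gene span or within 50 kb of it, which gave 93 peaks. Peaks of different libraries that shared at least 1 bp were merged, so the 93 peaks formed 47 of the 27080 regions of the whole series, and 17 of the 47 held peaks of all 3 immunoprecipitated (IP) libraries. Such regions are called reproducible here. The series maps SOX2, a transcription factor of neural stem cells and astrocytes, by ChIP-seq, which sequences the chromatin fragments that an antibody to the protein brings down and sets them against unselected chromatin, the input. There were 3 SOX2 IP libraries, made with a rabbit anti-SOX2 antibody, and 1 input library, all made from cortex; the animals were wild-type C57BL/6 males aged 2 months. All 4 samples also carry a label naming SOX2 as a transduced factor, which the tissue protocol does not mention. The labels used here name no time of day, and bulk cortex mixes cell types, so a peak cannot be placed in one of them.

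The mammalian clock is a feedback loop of transcription. BMAL1, the product of Arntl, pairs with CLOCK or with its relative NPAS2 and activates genes through E-boxes, DNA elements with the core letters CACGTG. The PER and CRY proteins made from those genes then return to the nucleus and inhibit the activators. The loop runs in most cells of the brain, astrocytes and neurons included.

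The IP libraries held 36330529, 32492927 and 41875666 tags (reads placed on the genome) and 17730, 17628 and 15891 peaks in libraries 1, 2 and 3. Peak strength is in normalized tags, which the authors computed by scaling each library to 10000000 tags. The authors' peak score, a tag count after a cap per bp, had to reach 14, 13 and 16 in libraries 1, 2 and 3, and the tags recomputed from normalized tags can lie a little under it. Clock gene peaks had medians of 6.47, 6.46 and 6.09 normalized tags in libraries 1, 2 and 3, against 6.06, 6.16 and 5.25 over all peaks. Clock gene peaks, like the peaks of the libraries in general, thus rest on few tags. The files list only peaks above the authors' threshold, and a gene without a peak is one where none passed it. The input enters only through the authors' peak calling. Peak lists hold no expression values, so the tissue label was not checked by markers, and the gene tables used hold no exons, so a region inside a gene is not called exonic or intronic. The labels do not state that separate animals gave the 3 IP libraries, and their spread may therefore be technical only.

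Promoter sequence was at hand for 7 of the 8 genes, as 250 bases upstream of each transcription start listed by RefSeq (build GRCm38.p6, whose coordinates are those of mm10). A single window each of Arntl, Cry1 and Per1 is printed because peaks lie on or close to it. Arntl and Per1 have 2 listed starts each. The unprinted Arntl window overlaps the printed one. The unprinted Per1 window holds no E-box and lies 2.18 kb from the nearest region. The printed Arntl window is chr7:113207215-113207464 on the plus strand, and its capitals mark the 139 bases covered by a peak of IP library 2. The Cry1 window is chr10:85185055-85185304 on the minus strand, and the printed Per1 window is chr11:69098699-69098948 on the plus strand. In these last windows the capitals mark an E-box.
Arntl: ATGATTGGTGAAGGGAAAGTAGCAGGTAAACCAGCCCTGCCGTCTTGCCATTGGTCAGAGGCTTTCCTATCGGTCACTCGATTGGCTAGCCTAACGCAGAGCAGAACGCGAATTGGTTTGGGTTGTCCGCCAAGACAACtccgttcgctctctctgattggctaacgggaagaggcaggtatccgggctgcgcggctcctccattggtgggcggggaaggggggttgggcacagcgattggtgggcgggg
Cry1: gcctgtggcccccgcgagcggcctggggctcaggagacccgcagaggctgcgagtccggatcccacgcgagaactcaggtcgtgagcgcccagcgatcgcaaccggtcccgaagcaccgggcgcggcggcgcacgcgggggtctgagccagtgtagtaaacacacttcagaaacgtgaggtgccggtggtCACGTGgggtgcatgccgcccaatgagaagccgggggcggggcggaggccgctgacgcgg
Per1: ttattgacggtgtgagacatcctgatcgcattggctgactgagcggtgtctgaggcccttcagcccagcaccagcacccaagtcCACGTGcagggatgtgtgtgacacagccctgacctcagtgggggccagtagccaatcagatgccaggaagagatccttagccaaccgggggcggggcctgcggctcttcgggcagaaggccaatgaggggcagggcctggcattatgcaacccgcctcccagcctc

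The 6 motifs named below were searched on both strands of the 11 promoter windows of the 7 genes and of all 32851 windows in the table. The E-box CACGTG was found upstream of Cry1, 60 bases before the start, and of Per1, 166 bases before 1 of its 2 listed starts. It was found in 6.02% of all windows. The D-box TTATGTAA, the element of PAR bZIP factors, was found at 205 and 158 bases before the start of Per3 and in 0.819% of all windows. The SOX core ACAATG or ACAAAG was found in 1 clock gene window, 200 bases before a listed start of Clock, against 25.2% of all windows. The cAMP element TGACGTCA (1.55% of all windows), the octamer ATGCAAAT (1.6%) and the palindromic NFI element (0.0365%) had no match in the clock gene windows. No match overlapped another. These are matches of letters in a short window and say nothing of binding.

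**Figure D1:**
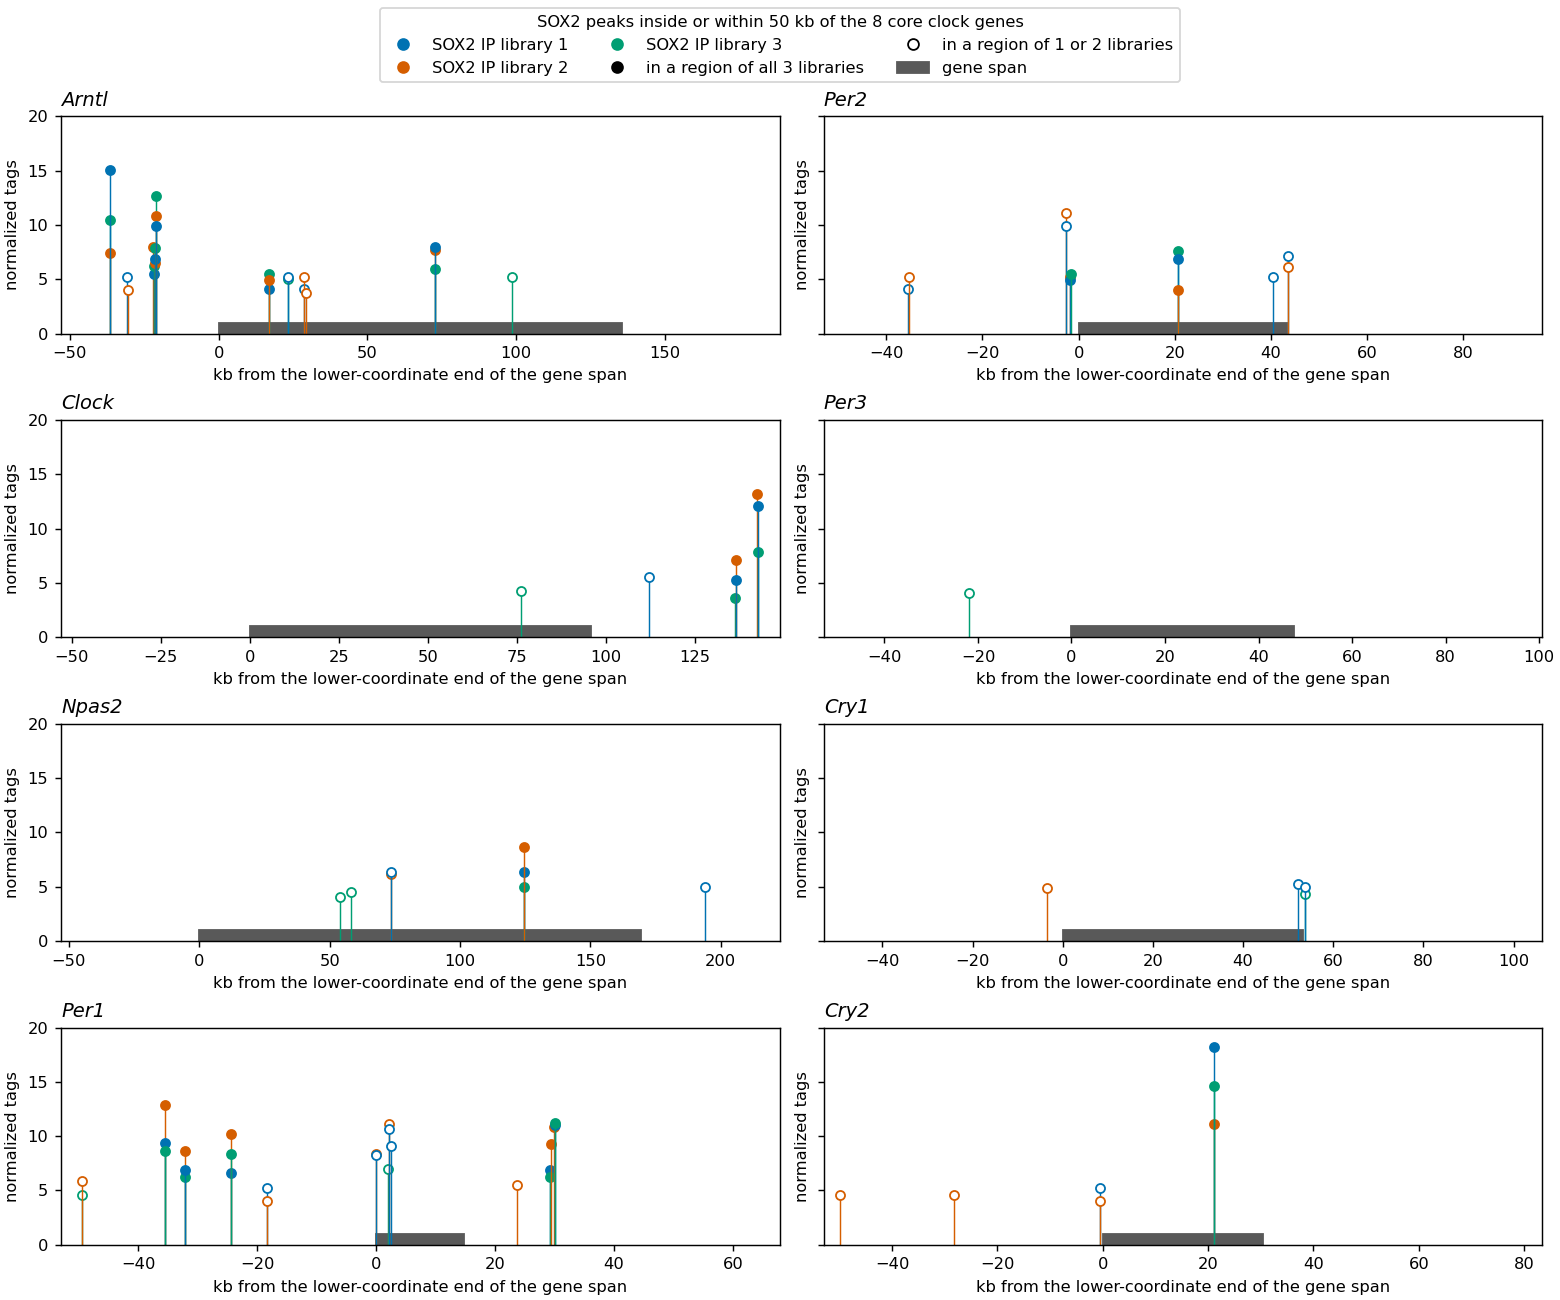
SOX2 peaks around each core clock gene, by distance in kb from the lower-coordinate end of the gene span (horizontal axis) and normalized tags (vertical axis); colours are the 3 IP libraries, filled points lie in regions of all 3 libraries, open points in regions of fewer, and the grey bar is the gene. Arntl shows 6 reproducible regions, Per1 has them only outside its span, and Per3 has a single peak.

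Reproducible regions lay in or near 6 of the 8 genes: Arntl with 6, Per1 with 5, Clock and Per2 with 2 each, and Npas2 and Cry2 with 1 each. Per3 and Cry1 had none. The share of 75% compares with 46.6% of all 21631 protein-coding genes on the autosomes and X. In 5 of the 17 regions the centre was inside the gene, and these fell in 4 of the 8 genes (Arntl, Npas2, Per2 and Cry2), against 14.8% of all genes. Another protein-coding gene was nearer to 8 of the 17 regions, among them all 5 of Per1 and both of Clock. The 9 others again belonged to Arntl, Npas2, Per2 and Cry2, so 4 of the 8 genes had a region to which no other gene was nearer, against 22.9% of all genes. Counted by region, these 9 of 17 compare with 7917 of the 18297 pairs of a gene and a reproducible region over all genes. A region of any library lay in or near all 8 genes, against 71.8% of all genes, and peaks of IP libraries 1, 2 and 3 at 7, 7 and 8 of them, against 62.8%, 63.2% and 60.9%. With 8 genes chosen as a group these shares are a description, with no test.

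The clock genes had longer windows than most genes, with a median of 151 kb of sequence searched against 117 kb over all genes. Per length, the core clock gene windows together held 1.22 reproducible regions per 100 kb, against 0.57 over the windows of all genes. The windows of the 20 other clock genes described below held 1.21. Per1 had 4.35 per 100 kb and Arntl 2.55. By count, not per length, 0.837% of all genes had at least as many reproducible regions as Arntl, whose window was 236 kb. The share was 1.83% for Per1, 21.4% for Clock and Per2, and 46.6% for Npas2 and Cry2. The count of 17 rested in part on IP library 3: regions found in both IP libraries 1 and 2 numbered 26. Of the 12 clock gene regions found in exactly 2 libraries, 9 (75%) lacked library 3, against 44.7% of the 5496 such regions in the series. The input filter took out 22.8% of the candidate peaks of library 3 but 15.5% of those of library 1 and 14.8% of those of library 2. Its part in the missing peaks was not tested.

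**Figure D2:**
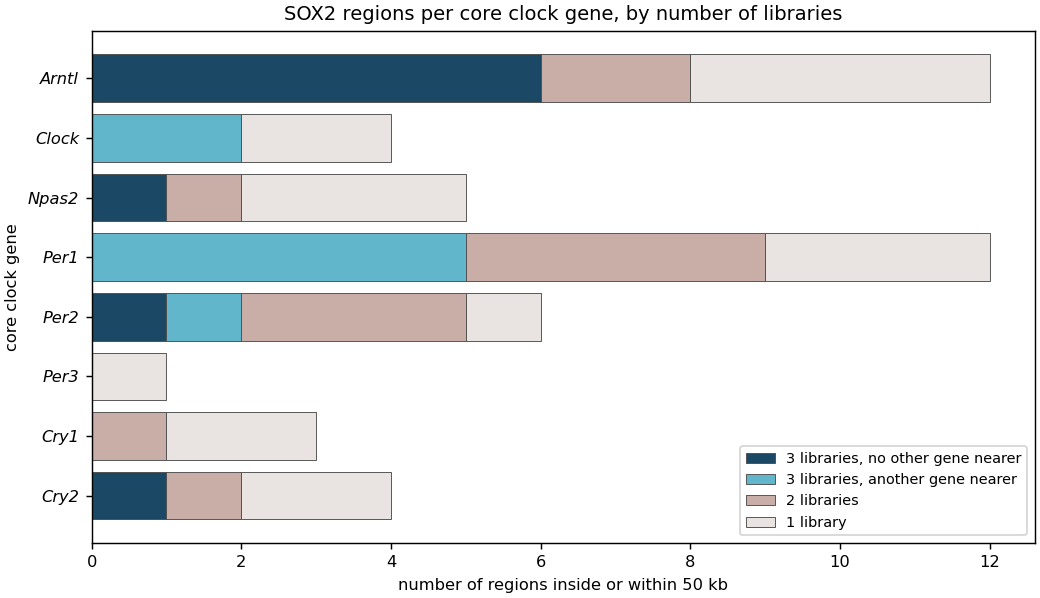
Number of SOX2 regions inside or within 50 kb of each core clock gene (horizontal axis), split by the number of IP libraries that hold a peak and, for 3 libraries, by whether another protein-coding gene is nearer. Arntl and Per1 each have 12 regions, and all 5 reproducible ones of Per1 lie nearer to another gene.

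Among the activators, Arntl carried the most regions. The gene spans chr7:113178471-113314126. Its 6 reproducible regions had no other protein-coding gene nearer, and 4 of them lay before the lower end of the span and 2 inside it. Arntl is on the plus strand, so the 4 lie upstream. A row of 3 of these stood within 1.14 kb, about 21 kb from the span and 50 kb upstream of the nearest listed start. The strongest of the row, chr7:113157408-113157603, held 9.91, 10.8 and 12.7 normalized tags in IP libraries 1, 2 and 3 (11.1 ± 1.43, SD, n = 3). It was enriched 65.3-fold, 71.0-fold and 83.4-fold over the input, the highest folds of each library's clock gene peaks, but the input stood at its floor of 0.5 tags, on which these folds depend. Its neighbours in the row held 7.07 ± 0.729 and 6.57 ± 1.28 normalized tags, lower in every library.

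The remaining upstream region of Arntl, chr7:113141891-113142072, lay 36.5 kb from the span and held 15.1, 7.39 and 10.5 normalized tags in IP libraries 1, 2 and 3. The exact Poisson 95% intervals of libraries 1 and 2, 11.4 to 19.7 and 4.73 to 11.0, did not overlap here, while that of library 3, 7.63 to 14.1, met both. Such intervals cover counting error only. Inside the gene, the region chr7:113251115-113251310 held 7.98, 7.69 and 5.97 normalized tags, and chr7:113195378-113195576 held 4.13, 4.92 and 5.49, the weakest mean of the 17 regions. Both are in the span but on opposite sides of the starts listed by RefSeq, 43.7 kb downstream and 12.0 kb upstream of the nearest one.

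At the Arntl start itself no region was reproducible. IP library 1 had a peak of 4.13 normalized tags that ended just before the printed window, IP library 2 had the peak of 5.23 normalized tags shown in capitals and another of 3.69 beyond the start, and IP library 3 had none. The peaks of libraries 1 and 2 next to each other were 18 bp apart and did not share a base. Recomputed from the normalized tags, the 3 peaks rest on 15, 17 and 12 tags, against peak scores of 14, 17 and 13. The remaining Arntl regions were a region upstream of the gene, with 5.23 and 4.0 normalized tags in IP libraries 1 and 2, another inside it, with 5.23 and 5.01 in IP libraries 1 and 3, and a peak of IP library 3 inside it with 5.25. None of the 12 Arntl regions lay nearer to another protein-coding gene.

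Clock (chr5:76209868-76305603, minus strand), which encodes the partner of BMAL1, had no reproducible region within its own span. Its stronger region, chr5:76352331-76352497, held 12.1, 13.2 and 7.88 normalized tags in IP libraries 1, 2 and 3 and lay 46.8 kb from Clock and inside Nmu, which encodes the neuropeptide neuromedin U. The other, also inside Nmu, lay 40.6 kb from Clock and held 5.23, 7.08 and 3.58, with no base common to the peaks of all 3 libraries. IP library 3 was the lowest at both. The only peak inside Clock was 1 of IP library 3, with 4.3 normalized tags. A further peak, of IP library 1 with 5.51, lay inside Pdcl2, so 3 of the 4 Clock regions were inside other genes.

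Npas2 (chr1:39193702-39363240, plus strand), which can take the place of CLOCK in the forebrain, had 1 reproducible region, chr1:39318097-39318357, inside the gene and 124 kb downstream of its start. It held 6.33, 8.62 and 5.01 normalized tags, a mean of 6.65 ± 1.83 (SD, n = 3), below the median of 7.63 over all reproducible regions. A further region inside Npas2 was found in IP libraries 1 and 2, with 6.33 and 6.16 normalized tags, and 2 more in IP library 3 alone, with 4.06 and 4.54. A peak of IP library 1 beyond the gene, inside Tbc1d8, held 4.95.

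**Figure D3:**
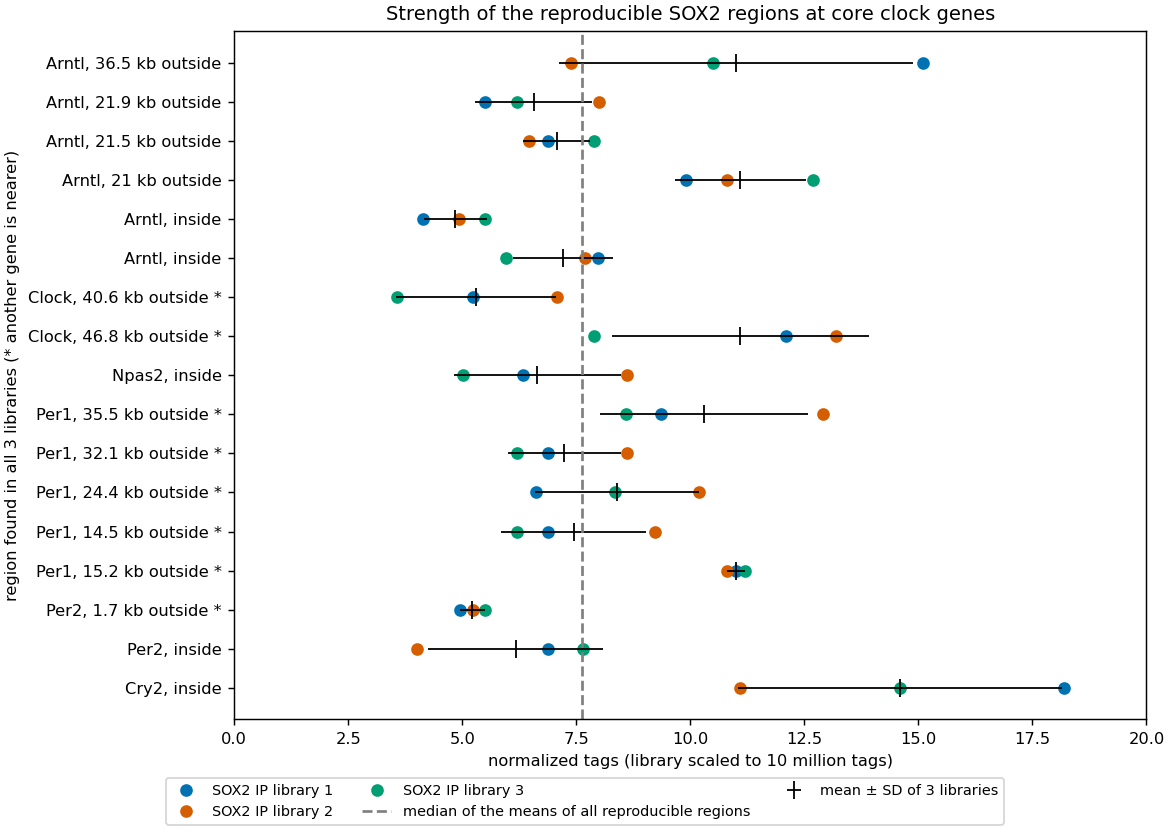
Normalized tags (horizontal axis) of the 17 reproducible regions at core clock genes in each IP library (coloured points), with mean and SD (black, n = 3); the dashed line is the median of the means of all reproducible regions, 7.63, and asterisks mark regions nearer to another gene. Cry2 has the highest mean, 14.6, and the lower of the regions inside Arntl has the lowest, 4.85.

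Among the inhibitors, Per1 (chr11:69095108-69109965, plus strand), a gene quickly induced by light and hormone signals, had the most regions per length. Its 5 reproducible regions all lay outside the gene. Below the lower end, 2 were nearest to Borcs6, which encodes a subunit of the lysosome-positioning BORC complex, with 10.3 ± 2.29 and 7.24 ± 1.24 normalized tags (SD, n = 3). The third, with 8.39 ± 1.80, lay 0.061 kb from Tmem107, a gene of the ciliary transition zone. Above the higher end, a region of 7.44 ± 1.59 lay 0.385 kb from Hes7, a Notch effector of the segmentation clock. The last, with 11.0, 10.8 and 11.2 normalized tags in IP libraries 1, 2 and 3, lay 0.289 kb from Aloxe3, an epidermal lipoxygenase gene, and was the most even of the 17 across libraries.

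At Per1 itself, each IP library had peaks, with no other protein-coding gene nearer, within 2.79 kb at the upstream end of the span, but they did not line up. A region over the end of the span, chr11:69094935-69095193, held 8.26 and 8.31 normalized tags in IP libraries 1 and 2. The next, chr11:69097170-69097367, held 10.7 and 11.1 in the same libraries, above the median of all reproducible regions. The peak of IP library 3, with 6.93, ended 45 bp before it, and a last peak, of IP library 1 alone, held 9.08. When peaks up to 150 bp apart were joined, a distance set once the data had been seen, this became a region of all 3 libraries and the count at the 8 genes 18 in place of 17. The block ends 0.977 kb before the printed Per1 window with its E-box. Of the other Per1 regions, that of IP libraries 1 and 2 near Tmem107 held 5.23 and 4.0, and the peak of IP library 2 near Hes7 held 5.54, both outside the gene.

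Per2 (chr1:91415977-91459351), whose protein is a main inhibitor of the loop, had 1 reproducible region inside the gene, chr1:91436476-91436780, with 6.88, 4.0 and 7.64 normalized tags in IP libraries 1, 2 and 3 (6.17 ± 1.92, SD, n = 3). Another, 1.7 kb from Per2, was nearer to Hes6, a HES family gene that promotes neuronal differentiation, and held 4.95, 5.23 and 5.49. A stronger region inside Hes6, 2.64 kb from Per2, held 9.91 and 11.1 in IP libraries 1 and 2 and had no peak in library 3. At the higher-coordinate end of Per2, 0.147 kb outside it, a region held 7.16 and 6.16 in libraries 1 and 2, again without a peak in library 3. A peak of IP library 1 inside the gene held 5.23 with an enrichment of 34.5-fold, over an input at its floor of 0.5 tags. A region inside Ilkap held 4.13 and 5.23 in IP libraries 1 and 2. Only 2 of the 13 Per2 peaks were of library 3, against 6 of library 1 and 5 of library 2.

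Per3 (chr4:150997018-151044707, minus strand), the PER gene least needed for rhythm in mice, had the fewest peaks of the 8 genes. Its only one, of IP library 3, held 4.06 normalized tags and lay 22 kb from the gene. Cry1 (chr10:85131700-85185054, minus strand), which encodes a strong inhibitor of BMAL1 and CLOCK, had peaks in every library but in no region of all 3. Its only region of 2 libraries was chr10:85185359-85185527, 54 bp upstream of the printed window, with 4.95 and 4.3 normalized tags in IP libraries 1 and 3. A peak of IP library 1 in the gene, 1.26 kb downstream of the start, held 5.23. The peak of IP library 2, with 4.92, was nearer to Mterf2, which encodes a protein of the mitochondrial transcription termination factor family.

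Cry2 (chr2:92403646-92434085, minus strand), which encodes the other CRY inhibitor, had the strongest reproducible region of the 8 genes. It lay inside the gene, chr2:92424737-92424918, 9.24 kb downstream of the start, and held 18.2, 11.1 and 14.6 normalized tags in IP libraries 1, 2 and 3 (14.6 ± 3.55, SD, n = 3). The exact Poisson 95% intervals of these libraries, 14.1 to 23.1, 7.76 to 15.3 and 11.1 to 18.7, overlapped. It was enriched 59.8-fold, 36.5-fold and 48.0-fold over the input, and by mean tags the region stood at percentile 89.1 of the 9333 reproducible regions. By tags in the 3 libraries, the 3 most similar of 5436 protein-coding genes that also had 1 reproducible region were Ccdc85b and Fosl1, with the same 18.2, 12.6 and 14.8, and Acmsd with 17.9, 12.6 and 14.8. Their summed absolute log2 differences from Cry2 were 0.20, 0.20 and 0.23. Ccdc85b and Fosl1 share 1 region, so these are 2 regions, not 3. The shared region lay 32.9 kb from Ccdc85b and 34.5 kb from Fosl1, and the other 6.44 kb from Acmsd. Both were thus outside these genes, whereas the Cry2 region is inside its gene. The other Cry2 regions were weaker: 1 of IP libraries 1 and 2 just beyond the gene, with 5.23 and 4.0, and peaks of IP library 2 inside Pex16 and Phf21a, each with 4.62.

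Ordered by the mean of the strongest reproducible region, Cry2 (14.6 ± 3.55) was followed by Arntl (11.1 ± 1.43), Clock (11.1 ± 2.81), Per1 (11.0 ± 0.20), Npas2 (6.65 ± 1.83) and Per2 (6.17 ± 1.92). The libraries of Cry2 overlapped in range with those of Arntl, and those of Npas2 with those of Per2. No library of Npas2 or Per2 reached the lowest of Cry2, Arntl or Per1, but Npas2 in library 2, at 8.62, passed Clock in library 3, at 7.88. Over the 17 regions the median was 7.24 normalized tags, against 7.63 over all reproducible regions, and the percentiles ran from 6.88 to 89.1 with a median of 45.2. In strength the clock gene regions thus ran from near the bottom to near the top of all reproducible regions.

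**Figure D4:**
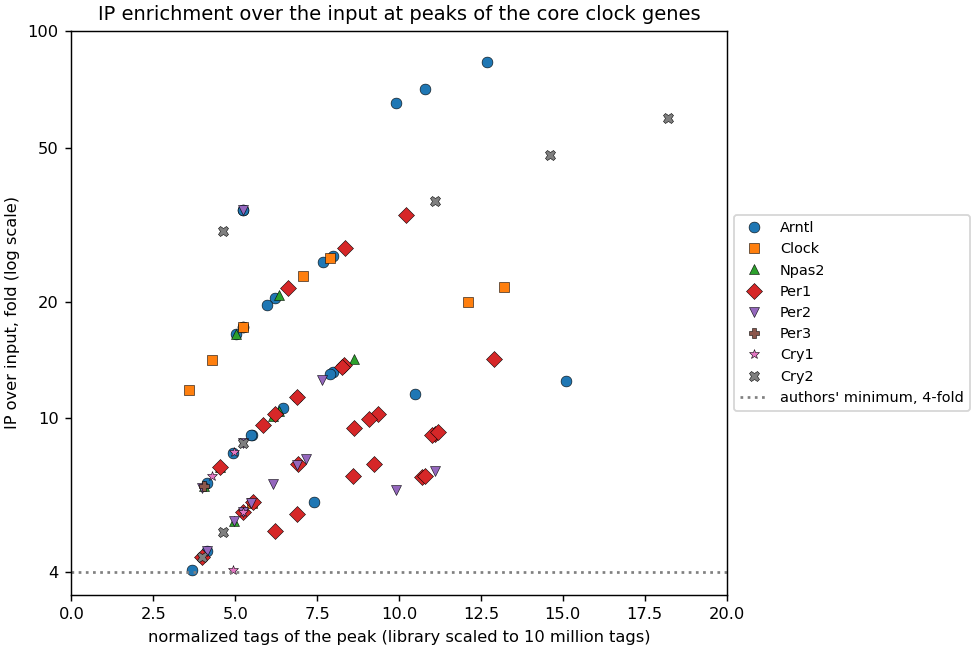
Enrichment of IP over input (vertical axis, log scale) against normalized tags (horizontal axis) for the 93 peaks of the core clock genes, one point per peak and library. Points fall on lines because the input held 0.5 to 5 tags at a peak; the 3 peaks of one Arntl region reach 65.3-fold to 83.4-fold and those of the Cry2 region 36.5-fold to 59.8-fold.

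Against the input, the clock gene peaks of IP library 1 had a median enrichment of 9.52-fold, against 12.2-fold over all its peaks. In library 2 the medians were 9.12-fold and 11.9-fold, and in library 3, where the order was reversed, 11.7-fold and 10.6-fold. The folds are the authors' values and rest on at most 5 input tags a peak. The focus ratio, the authors' fraction of a peak's tags that lie as its centre predicts, had medians of 0.685, 0.721 and 0.742, against 0.737, 0.737 and 0.731 over all peaks. The plot of enrichment and tags shows that peaks of like strength differed in enrichment: the Per1 region near Aloxe3, with a mean of 11.0 normalized tags, was enriched 8.47-fold ± 1.19, and the strongest Arntl region, with 11.1, 73.2-fold ± 9.26 (SD, n = 3 each). The input stood at 4.0, 4.9 and 4.0 tags at this Per1 region and at its floor of 0.5 at the Arntl region. All 3 IP libraries share that 1 input, so the SDs hold none of its counting error.

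The 50 kb limit decided several memberships. Just inside it were a Cry2 peak at 49.96 kb, of IP library 2 with 4.62 normalized tags, and a Per1 region at 49.50 kb. That Per1 region, nearest to Aurkb, held 5.85 and 4.54 in IP libraries 2 and 3. Just outside was a Cry2 region of 2 libraries at 52.49 kb, nearest to Slc35c1. Reproducible regions just outside lay 53.87 kb from Cry2 (8.17 on average, inside Phf21a) and 55.28 kb from Arntl (14.8, inside Btbd10). Another lay 57.16 kb from Per1 (8.48, nearest to Ctc1). Per3 and Cry1 had their first reproducible regions at 84.06 kb, inside Camta1, and at 87.37 kb, nearest to Ric8b.

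Of 20 other genes of the clock, 11 (55%) had a reproducible region, against the 46.6% of all genes given above, and 10 had one to which no other gene was nearer, against 22.9%. The nuclear receptor genes led. Rorb and Rora, which encode activators of Arntl, held 17.6 ± 1.15 and 14.4 ± 1.46 normalized tags (SD, n = 3) at their strongest regions, the one of Rorb being nearer to Trpm6. Nr1d2 and Nr1d1, which encode the REV-ERB repressors of Arntl, held 15.0 ± 1.07 and 10.2 ± 2.22, the one of Nr1d2 being nearer to other genes. Tef, a PAR bZIP factor gene, held 10.1 ± 0.677 inside the gene, and Ciart, which encodes the inhibitor CHRONO, 9.28 ± 2.05 at a region nearer to other genes. Rora had 14 reproducible regions of 32 in all, and the 14 lay inside its span of 735 kb. Among the genes without a reproducible region were Arntl2, a relative of Arntl, the D-box factor genes Dbp and Nfil3, Timeless, and the casein kinase genes Csnk1d and Csnk1e, whose products phosphorylate PER.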

How the data were processed

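SOX2 ChIP-seq of mouse cortex comprised 3 IP libraries and 1 input library, grouped by title. Per the labels' protocols, cortex (0.3 g) was fixed with formaldehyde after a long-arm crosslinker, and its chromatin sheared to 200 to 600 bp. HOMER 4.7, Bowtie 1.0.0 and the build mm10 are listed in the submitters' processing notes. Per the file headers, peaks were called in each IP library against the input with HOMER findPeaks in factor mode, with minimum folds of 4 over the input and over the local 10 kb, a Poisson p-value limit of 0.0001 and a false discovery rate of 0.001. The deposited values per peak are a signal of normalized tags (library total 10000000), tags as a count in IP library 2 and a scaled signal in libraries 1 and 3, a ratio (fold) over input, a score of tags after a cap per bp, and the focus ratio, a fraction, per the file headers.

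Overlapping peaks of the libraries (1 bp or more) were chained into regions, and a region takes its strongest peak in each library. The 5 peaks on chromosome Y were left out. Gene spans and promoters came from RefSeq tables of GRCm38.p6, and no genome sequence was used, so regions were not searched for motifs. Tags behind a value were recomputed from normalized tags and the library total, with exact Poisson 95% intervals. There is no contrast between replicated groups, so no test was made. Merging and assignment were tested on simulated data. Members, lists and motifs were chosen with earlier results of these data known. Named genes were the 8 core genes, nearer genes, the 6 strongest of the 20 other clock genes and the 3 most like the strongest core gene. Some genes of the wider list are not reported here by name. Alternatives were another number of libraries, stricter peaks or overlap, other windows and nearest-gene assignment. The tools were pandas 2.3.3, matplotlib 3.10.9, scipy 1.17.1 and numpy 2.4.6 under Python 3.11.15.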

Additional observations from a re-analysis of the deposited data

How the results depend on the processing

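The number of core clock genes with a reproducible region, 6, stayed within 1.5 times under all 12 alternatives run, from 4 to 8. With 8 core genes in all, no rise could have gone beyond that limit. The 11 of the other clock genes stayed within it too, from 8 to 16, while the share over all genes ran from 22.9% to 60.8%. With a window of 100 kb, 8 of the 8 core genes and 16 of the 20 others had one, against 60.8% of all genes; with 10 kb, 4 and 10 had one, against 26.4%; and with peaks of at least 8-fold, 5 and 8 had one, against 32.9%. The 17 regions at core genes became 29 with regions of at least 2 libraries. The share of all genes with a region was then 58.3%, against 46.6%. There were 10 with peaks of at least 8-fold enrichment (32.9%) and 11 with the stronger 0.5 of each library's peaks (31.3%). A window of 10 kb left 6 (26.4%), and 9 remained where no other gene was nearer (22.9%). Leaving out 1 IP library in turn gave 18 to 26 regions, the 26 without library 3. The share of all genes was 50.2%, 50.3% and 52.1% without libraries 1, 2 and 3. The cause of the higher count without library 3 was not tested. Ranked by fold over input in place of tags, the strongest region changed its mean percentile within the libraries to 96.5 against 75.0 for Arntl, to 57.7 against 35.1 for Npas2 and to 26.6 against 75.8 for Per1. No paired analysis was possible because only the IP libraries form a replicated group. The weakest peak at the Arntl start has a peak score of 13, the minimum in its library. Whether depth limits such weak peaks was not tested.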
